A study of Mus musculus with 13 samples.

Results

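The insulin-like growth factor binding proteins (IGFBPs) were examined in liver RNA of obese mice that received canagliflozin, a calorie-restricted diet or neither. The family was taken as the 7 genes Igfbp1 to Igfbp7, and each was found as a probe set that the platform annotation gives to that gene symbol alone. The rule for members selected on measured values where a gene had several such probe sets, by the highest mean over the 13 arrays. Each member had exactly 1, so no probe set was set aside. The 7 members are 7 of 22180 genes with such a probe set. All 7 also passed the filter on dim genes, which left 13308 genes for testing. The higher level of Igfbp1 under canagliflozin was known when the family was chosen. Its CANA and HFD values are therefore given as a description, and they are no independent support for a difference.

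IGFBPs are secreted proteins that bind the insulin-like growth factors IGF1 and IGF2, carry them in blood and control their access to the IGF1 receptor. Liver is the main source of circulating IGF1. IGFBP1 is made by hepatocytes, its transcription is repressed by insulin through FoxO factors, and it rises with fasting. IGFBP3 carries most of the circulating IGF1 in a ternary complex with the acid-labile subunit, the product of Igfals.

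The mice were male C57Bl/6J that started a 60% fat diet at an age of 6 weeks. Every group was made obese on it for 4 weeks. In the next 4 weeks, the HFD group (4 arrays) continued on this diet. The CANA group (4 arrays) received the diet with canagliflozin at 25 to 30 mg/kg, where the design text gives 30 mg/kg. The CR group (5 arrays) was held at the weight of the CANA mice by a caloric restriction of 15 to 30%. Canagliflozin inhibits SGLT2, the glucose transporter of the kidney tubule, and causes loss of glucose in urine. No lean group on a low-fat diet was analysed here, and the labels used here do not say whether the livers were fasted. They also do not say that each array came from a separate mouse, so what the p-values reflect is only variation among these samples, which may be technical.

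Values are log2 levels from Affymetrix gene arrays, and the array medians lay between 4.07 and 4.13. Precision is limited by how many arrays there were. A probe set has its own affinity, so levels are compared between groups for the same gene and never between genes. The 7 listed hepatocyte markers had a summed level between 15.81 and 15.90 on every array, and none of the marker genes tested for hepatocytes or the other cell types was called in any comparison. Some lists leaned one way without calls, such as the 8 Kupffer cell markers, all above zero in CANA vs CR (median 0.15, 0 at an unadjusted p under 0.05 in limma). In whole liver, fewer cells of a type and less RNA per cell cannot be told apart. The labels also carry a serial number of unstated meaning, which ran from 1 to 8 on 7 arrays and from 9 to 14 on the other 6. This split was chosen after the values had been seen. Every group had arrays in both sets, and values within them are given where they bear on a member.

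The promoter windows of Igfbp1 and Igfbp3 are shown because these genes are direct neighbours on mouse chromosome 11, lie on opposite strands and differed in how far their levels moved. Each window runs from 250 bases before to 50 bases after an annotated start, 300 bases in all, as given by RefSeq for GRCm38.p6. The Igfbp1 window is chr11:7197537-7197836 on the plus strand, and the Igfbp3 window is chr11:7213874-7214173 on the minus strand, each printed 5′ to 3′. Capitals mark the matches to the motifs searched.
Igfbp1: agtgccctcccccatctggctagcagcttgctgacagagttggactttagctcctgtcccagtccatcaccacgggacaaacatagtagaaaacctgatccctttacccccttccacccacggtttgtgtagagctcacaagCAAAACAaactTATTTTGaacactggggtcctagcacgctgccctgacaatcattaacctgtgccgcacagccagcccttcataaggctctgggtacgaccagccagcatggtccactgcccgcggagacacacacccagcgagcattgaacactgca
Igfbp3: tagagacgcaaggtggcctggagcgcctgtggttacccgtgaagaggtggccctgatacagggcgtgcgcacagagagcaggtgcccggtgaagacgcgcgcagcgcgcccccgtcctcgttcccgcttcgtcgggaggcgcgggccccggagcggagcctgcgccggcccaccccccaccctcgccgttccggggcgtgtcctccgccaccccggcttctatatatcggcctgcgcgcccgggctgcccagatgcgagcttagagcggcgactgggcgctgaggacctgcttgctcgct
Both strands were searched for TGTTTTG, the core of the insulin response element, for its variant TATTTTG, and for GTAAACA, a FoxO consensus. Igfbp1 held TGTTTTG on the opposite strand at positions 143 to 149 of its window and TATTTTG on the printed strand at positions 154 to 160, counted from the 5′ end. Over 32851 RefSeq promoter windows, TGTTTTG occurred in 6.28%, TATTTTG in 4.36% and GTAAACA in 3.65%. Both cores occurred together in 0.472%, and as an inverted pair at most 6 bases apart in 1 window, that of Igfbp1. This pair was defined with the known element of Igfbp1 in mind. The 7 windows of the other 6 members, of which Igfbp2 has a pair, held none of the 3 motifs. That says only that these letters are not in these windows. GC content was 54.3% in the Igfbp1 window and 71.7% in the Igfbp3 window, against a median of 52.7% over all windows. Igfbp2 and Igfbp5 are also direct neighbours, on chromosome 1 and on opposite strands.

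Igfbp1 was the member with the widest differences. Its level on the HFD arrays was 8.27, 8.92, 8.65 and 8.72. On the CANA arrays it was 10.39, 11.36, 12.49 and 10.68. On the CR arrays it was 8.69, 8.63, 8.74, 10.29 and 10.54. The HFD and CANA arrays did not overlap. The CR arrays fell apart, with 3 inside the HFD range and 2 close to the lowest CANA array. The group means were 8.64 ± 0.27 (SD, n = 4) in HFD, 11.23 ± 0.93 (SD, n = 4) in CANA and 9.38 ± 0.95 (SD, n = 5) in CR.

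**Figure D1:**
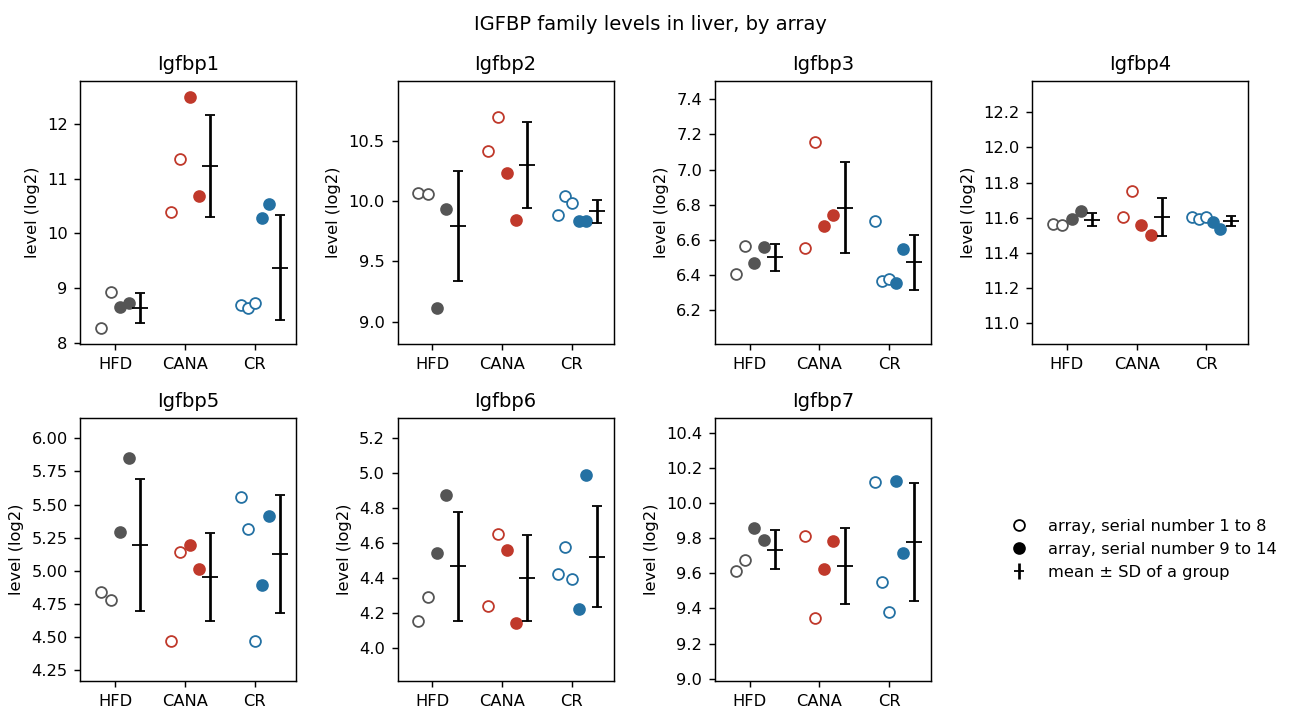
Log2 level of each IGFBP gene on every array, by group (x axis), with the mean ± SD of each group in black. Open circles are serial numbers 1 to 8 and filled circles 9 to 14, and each panel has its own log2 axis. Igfbp1 is the member whose CANA arrays all lie above all HFD arrays, from 10.39 upward against at most 8.92.

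Between CANA and HFD the Igfbp1 difference was 2.59 on the log2 scale (SE 0.46, 95% interval 1.62 to 3.56, limma adjusted p = 0.0383), or 6.02-fold with an interval of 3.06 to 11.8. It was the only one of the 7 members called at an adjusted p under 0.05 in this comparison, where 0.165% of the 13308 genes were called. It was also the only member whose CANA arrays all lay above all HFD arrays, a pattern that 2.13% of the genes showed in that direction. Ranked by difference, Igfbp1 stood 2nd highest of the 13308 genes, and by p it stood 13th. The exact permutation test of the 4 against 4 arrays gave p = 0.0286 (two-sided), the smallest that this design allows. The difference kept its direction with arrays left out, and its call did not hold. Leaving out a CR array cannot change the difference, since the CANA and HFD means stay as they are. With each array left out in turn, the difference stayed between 2.17 and 2.87, while the adjusted p ran from 0.0181 to 0.123. The call was lost without any one of the HFD arrays (adjusted p between 0.0818 and 0.108) and without CANA replicate 2, 3 or 4 (0.0881, 0.123 and 0.0508).

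**Figure D2:**
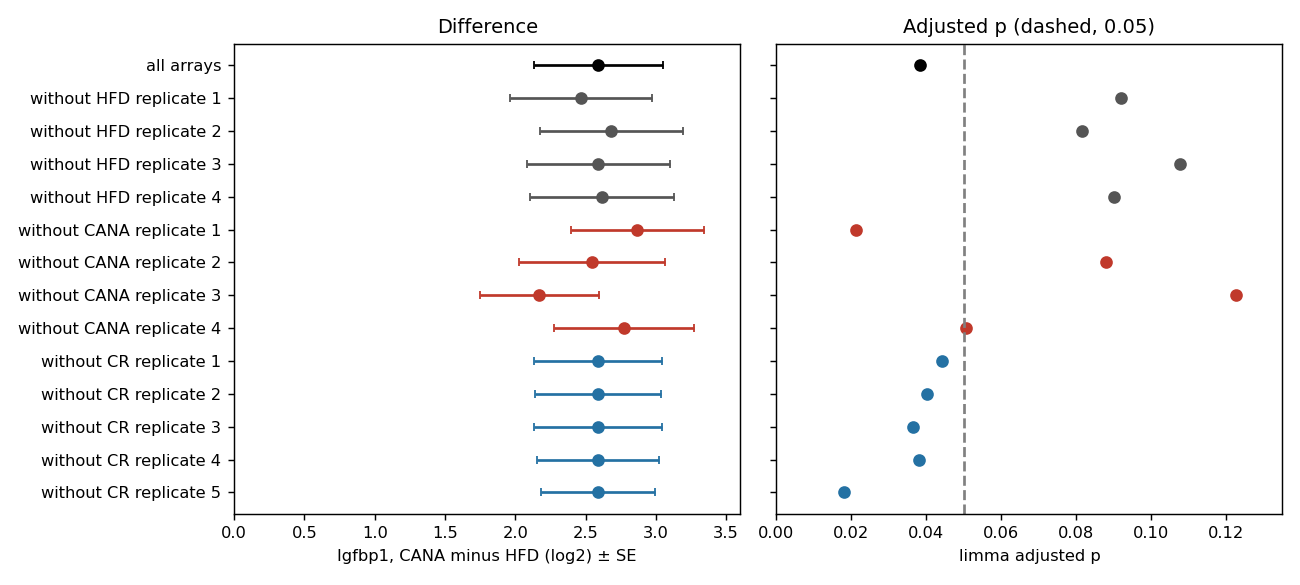
Igfbp1 difference of CANA and HFD on the log2 scale with its SE (left) and limma adjusted p (right), with all arrays and with each array left out in turn. The dashed line marks an adjusted p of 0.05. The difference stays between 2.17 and 2.87, and 7 of the 13 points of the right panel with an array left out lie past the line.

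Between CR and HFD, Igfbp1 was not called. The CR and HFD difference was 0.74 (SE 0.44, 95% interval -0.19 to 1.66, limma adjusted p = 0.999), and the groups overlapped. It ranked 7th highest of the 13308 genes without passing the test. It fell to 0.44 without CR replicate 5 and to 0.51 without replicate 4, and with any one array left out it lay between 0.44 and 0.92. The arrays numbered 1 to 8 and 9 to 14 differed in this. CR replicates 1, 2 and 3, of the lower numbers, stood 0.09 above the HFD arrays of the same set, and replicates 4 and 5 stood 1.73 above theirs. The change in the difference from the lower to the higher numbers was 1.64 (SE 0.60, limma unadjusted p = 0.0164, adjusted p = 0.987), so it did not pass over all genes. The split was chosen after these values had been seen, so the change is only a description. For CANA and HFD the corresponding differences were 2.28 and 2.90, with adjusted p of 0.0687 and 0.12 when only the arrays of each set entered the fit. Neither difference was called within a set, where each of these groups had 2 arrays. The part of the serial number in the CR split was not tested beyond these values.

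**Figure D3:**
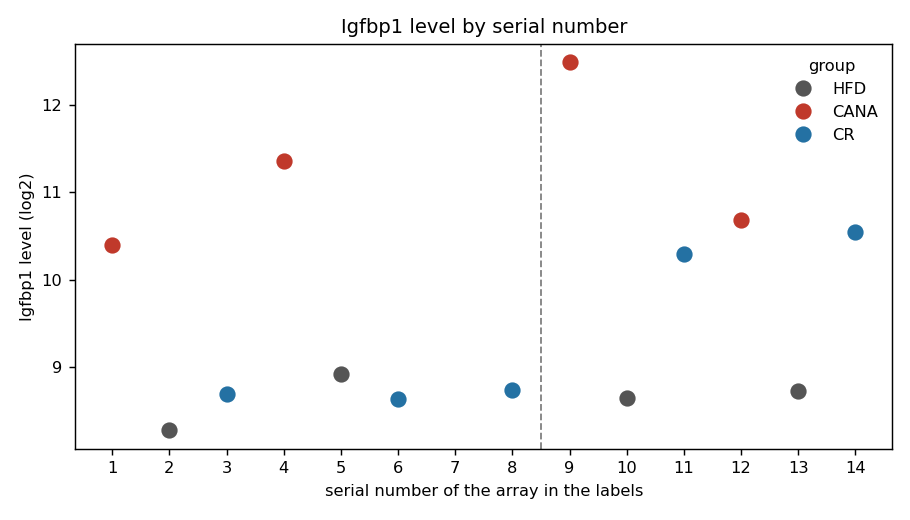
Igfbp1 log2 level of each array (y axis) against the serial number in its label (x axis), coloured by group, with a dashed line between the arrays numbered 1 to 8 and 9 to 14. The 3 CR arrays left of the line lie at 8.63 to 8.74, among the HFD arrays, and the 2 to its right at 10.29 and 10.54.

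Against weight-matched CR, Igfbp1 was 1.85 higher in CANA (SE 0.44, 95% interval 0.93 to 2.78), or 3.61-fold, but it was not called (limma adjusted p = 0.165). The highest CR array, at 10.54, lay above the lowest CANA array, at 10.39. The exact permutation test gave an unadjusted p of 0.0397 (two-sided). Within the arrays numbered 1 to 8 the difference was 2.19 and was called (adjusted p = 0.0295), and within those numbered 9 to 14 it was 1.17 and was not (adjusted p = 0.716). The split was chosen after the values had been seen, and it parts the CR arrays low in Igfbp1 from the high ones. The call within the lower numbers is therefore only a description. The 2 sets' differences did not differ past the threshold (-1.02, SE 0.60, adjusted p = 1.00). No member was called in CANA vs CR with all arrays, where 0.15% of the genes were called.

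Igfbp1 also varied more between arrays of a group than nearly every other gene, under both treatments. Its SD ranked 25th highest of 13308 genes in CANA and 22nd highest in CR. In HFD it ranked 1848th. The median SDs over all genes were 0.16, 0.16 and 0.15 in CANA, CR and HFD.

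Igfbp2 encodes a carrier made by hepatocytes that rises with fasting. Its level was 10.07, 10.06, 9.11 and 9.94 on the HFD arrays. On the CANA arrays it was 10.42, 10.70, 10.23 and 9.85, and on the CR arrays 9.89, 10.04, 9.98, 9.84 and 9.83. Of the CANA arrays 3 lay above all HFD and CR arrays, and the other lay within their ranges. The CANA and HFD difference was 0.50 (SE 0.20, 95% interval 0.09 to 0.92, limma adjusted p = 0.446) and did not pass. It shrank to 0.28 without HFD replicate 3, whose 9.11 was the lowest value of all arrays. Within the serial-number sets it was 0.49 and 0.52. CR differed from HFD by 0.12 (95% interval -0.27 to 0.52), and CANA from CR by 0.38 (95% interval -0.01 to 0.78, adjusted p = 0.598). The latter was 0.25 without CANA replicate 2, and 0.59 and 0.21 within the arrays numbered 1 to 8 and 9 to 14. The CR arrays were close together, with an SD of 0.09 against 0.46 in HFD.

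Igfbp3 encodes the main serum carrier of IGF1, and in rat liver it was traced to non-parenchymal cells. Its HFD arrays lay at 6.41, 6.57, 6.47 and 6.56. The CANA arrays lay at 6.56, 7.16, 6.68 and 6.74, and the CR arrays at 6.71, 6.37, 6.38, 6.35 and 6.55. The CANA arrays overlapped both other groups at their lower end. The CANA and HFD difference was 0.28 (SE 0.12, 95% interval 0.02 to 0.55, limma adjusted p = 0.520) and did not pass, and it shrank to 0.16 without CANA replicate 2. CANA and CR differed by 0.31 (95% interval 0.06 to 0.56, adjusted p = 0.489), or by 0.19 without CANA replicate 2. CR and HFD differed by -0.03 (95% interval -0.28 to 0.22). The 10 markers of stellate cells and fibroblasts had a summed level of 11.02 to 11.53 in HFD, 11.37 to 11.54 in CANA and 10.88 to 11.52 in CR. The 5 smooth muscle and pericyte markers ran from 8.46 to 8.75, from 8.62 to 9.27 and from 8.37 to 8.70. The latter sum mostly follows Rgs5, its probe set of highest value, which differed by 0.61 in CANA vs HFD. The other tested genes Acta2, Tagln and Myh11 differed by 0.05, 0.22 and 0.06. In CANA vs HFD, 6 of the 10 stellate markers and all 4 tested smooth muscle markers were above zero, with 3 and 1 at an unadjusted p under 0.05 in limma. In CANA vs CR, 7 of 10 and 4 of 4 were above zero, with 1 in each list at that level. No gene of either list was called, and the part of these cells in the Igfbp3 values was not tested. The intervals of the neighbours Igfbp1 and Igfbp3 did not overlap in CANA vs HFD. The Igfbp1 rise was known when the family was chosen, so this is a description and no test.

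Igfbp4, an IGF binding protein that inhibits IGF action and is cleaved by the protease PAPP-A, was the steadiest member. It measured 11.56, 11.56, 11.59 and 11.64 in HFD, 11.60, 11.75, 11.56 and 11.50 in CANA, and 11.60, 11.59, 11.60, 11.57 and 11.53 in CR. All groups overlapped. The SD was 0.04, 0.11 and 0.03 in HFD, CANA and CR, and only 1.91%, 22.9% and 0.323% of genes had a lower one. The CANA and HFD difference was 0.02 with a 95% interval of -0.15 to 0.19, and the CR and HFD difference was -0.01 with an interval of -0.17 to 0.15. These are the narrowest intervals in the family.

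Igfbp5, Igfbp6 and Igfbp7 are expressed mainly by stromal and endothelial cells in many tissues. IGFBP5 binds extracellular matrix, IGFBP6 prefers IGF2 to IGF1, and IGFBP7 is a secreted relative with low affinity for IGFs. Igfbp5 averaged 5.19 ± 0.50, 4.96 ± 0.33 and 5.13 ± 0.44 in HFD, CANA and CR (SD, n = 4, 4 and 5). Igfbp6 averaged 4.47 ± 0.31, 4.40 ± 0.25 and 4.52 ± 0.29. Igfbp7 averaged 9.73 ± 0.11, 9.64 ± 0.22 and 9.78 ± 0.34. For each gene the arrays of every pair of groups overlapped. The CANA and HFD differences were -0.24 (95% interval -0.77 to 0.30), -0.07 (-0.44 to 0.31) and -0.09 (-0.43 to 0.25), with limma adjusted p of at least 0.868. The intervals leave room for changes of either direction. The Igfbp5 difference was -0.07 without CANA replicate 1, -0.02 without HFD replicate 4 and -0.0051 within the arrays numbered 1 to 8. The Igfbp6 and Igfbp7 differences were 0.07 without HFD replicate 4 and 0.0075 without CANA replicate 2, so leaving out 1 array turned their sign. The 9 sinusoidal endothelial markers had a summed level of 10.91 to 11.28 in HFD, 10.72 to 11.26 in CANA and 10.95 to 11.37 in CR, so these ranges overlapped too. Of these 9 markers, 8 were below zero in CANA vs HFD and 8 in CANA vs CR, with medians of -0.14 and -0.15. In limma 0 and 2 of them had an unadjusted p under 0.05. Igfbp5, Igfbp6 and Igfbp7 were below zero in both comparisons as well, and the part of these cells in their values was not tested.

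**Figure D4:**
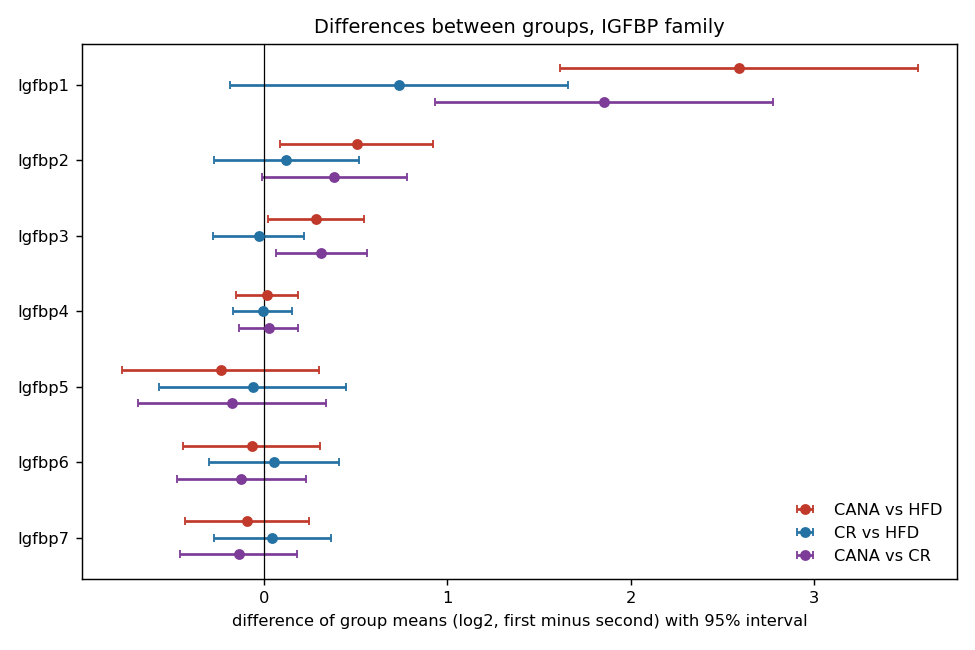
Difference of group means on the log2 scale (x axis, first group minus second) with its 95% interval from the limma fit, for each IGFBP gene and comparison. The Igfbp1 intervals lie above 0 in CANA vs HFD and CANA vs CR, from 1.62 and 0.93 upward, and the Igfbp4 intervals lie between -0.17 and 0.19.

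In the order of group means, CANA stood above CR and CR above HFD for Igfbp1 and Igfbp2. For Igfbp3 the order was CANA, HFD, CR. For Igfbp4 it was CANA, HFD, CR, for Igfbp5 HFD, CR, CANA, and for Igfbp6 and Igfbp7 it was CR, HFD, CANA. Groups next to each other in these orders overlapped for all 7 genes. Of the 7 members, 4 were above and 3 below zero in each comparison, and their median difference was 0.02 in CANA vs HFD, 0.05 in CR vs HFD and 0.02 in CANA vs CR. Over all genes the medians were -0.01, -0.01 and -0.00. The 3 comparisons share groups, so they are not separate pieces of evidence. In CR vs HFD limma called 0 of 7 members, as it called 0% of all genes. There, 0 members had an unadjusted p under 0.05, in limma or in the exact permutation test, against 498 of 13308 genes in limma. At an unadjusted p under 0.05, limma had 3 members in CANA vs HFD (Igfbp1, Igfbp2 and Igfbp3) and 2 in CANA vs CR (Igfbp1 and Igfbp3). The limma shares over all genes were 8.82% and 8.43%. These counts include Igfbp1, whose rise was known when the family was chosen. For Igfbp1, Igfbp2 and Igfbp3, the exact permutation p was 0.0286, 0.143 and 0.0857 in CANA vs HFD. In CANA vs CR it was 0.0397, 0.0397 and 0.0476.

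The members were also compared with each other between arrays of the same group, with group means removed (13 arrays, 21 pairs). Permuting arrays within groups called no pair after Benjamini-Hochberg adjustment. Igfbp5 and Igfbp6 had the highest correlation, with a Pearson r of 0.699 (permutation p = 0.0228, adjusted 0.239) and a Spearman rho of 0.709 (permutation p = 0.0165, adjusted 0.346). Without the 2 arrays farthest from the median of Igfbp5, r was 0.739, and with means of group and serial-number set removed it was 0.636. Igfbp2 and Igfbp7 had an r of -0.464 (permutation p = 0.0148, adjusted 0.239) and a rho of -0.506 (permutation p = 0.0426, adjusted 0.447). Without the 2 arrays farthest from the median of Igfbp2, r was -0.508, and with the sets removed it was -0.359. Of Igfbp1 and each other member, the largest r in size was 0.431, with Igfbp6 (permutation p = 0.172, adjusted 0.594). It was 0.0794 without the 2 arrays farthest from the median of Igfbp1, and 0.636 with the sets removed (permutation p = 0.0629, adjusted 0.437). For Igfbp1 and Igfbp4, r went from -0.136 to 0.637 with the sets removed (permutation p = 0.359, adjusted 0.538).

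Genes with the pattern most like that of each member were ranked by Pearson r over the 13 arrays, among 12363 named genes. These arrays share the group differences, so the values are descriptions. The highest r among so many genes can be large by chance, and no chance level was computed. For Igfbp1 the highest were Got1, the cytosolic aspartate aminotransferase (0.969), Sik1, a salt-inducible kinase (0.949), Flot1, a flotillin of membrane rafts (0.940), Mir344d-2, a microRNA gene (0.929), and Ctcflos, an antisense gene (0.922). The lowest were Srebf1, the lipogenic transcription factor SREBP1 (-0.945), Mid1ip1, a regulator of acetyl-CoA carboxylase (-0.921), and Tubgcp6, of the gamma-tubulin complex (-0.909). Got1 measured 11.33, 10.94, 11.13, 11.90 and 11.97 on the CR arrays. Sik1 measured 6.98, 6.89, 7.15, 7.59 and 7.60 there. Srebf1 measured 8.91, 8.66, 8.47, 8.37 and 8.17. CR replicates 4 and 5, the arrays high in Igfbp1, were thus also the highest CR arrays for Got1 and Sik1 and the lowest for Srebf1. These genes were picked by their r with Igfbp1 over these same arrays, so that order is no separate support for the CR split.

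Between CANA and HFD, Sik1 rose by 1.41 (limma adjusted p = 0.0326) and Ctcflos by 1.31 (adjusted p = 0.0127). Got1 differed by 1.07 (adjusted p = 0.0514) and Srebf1 by -0.85 (adjusted p = 0.108), neither of which passed. With the group means removed, the genes most like Igfbp1 were Hacl1, a peroxisomal lyase of fatty acid alpha-oxidation (r = 0.946), Got1 (0.924), Map3k13 (0.916), Hspb8, a small heat shock protein (0.914), and Dcpp2 (0.897). Got1 was thus in both lists. Hacl1 differed by 0.27 between CANA and HFD (adjusted p = 0.822) and was not called. Its likeness to Igfbp1 within groups was not tested.

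**Figure D5:**
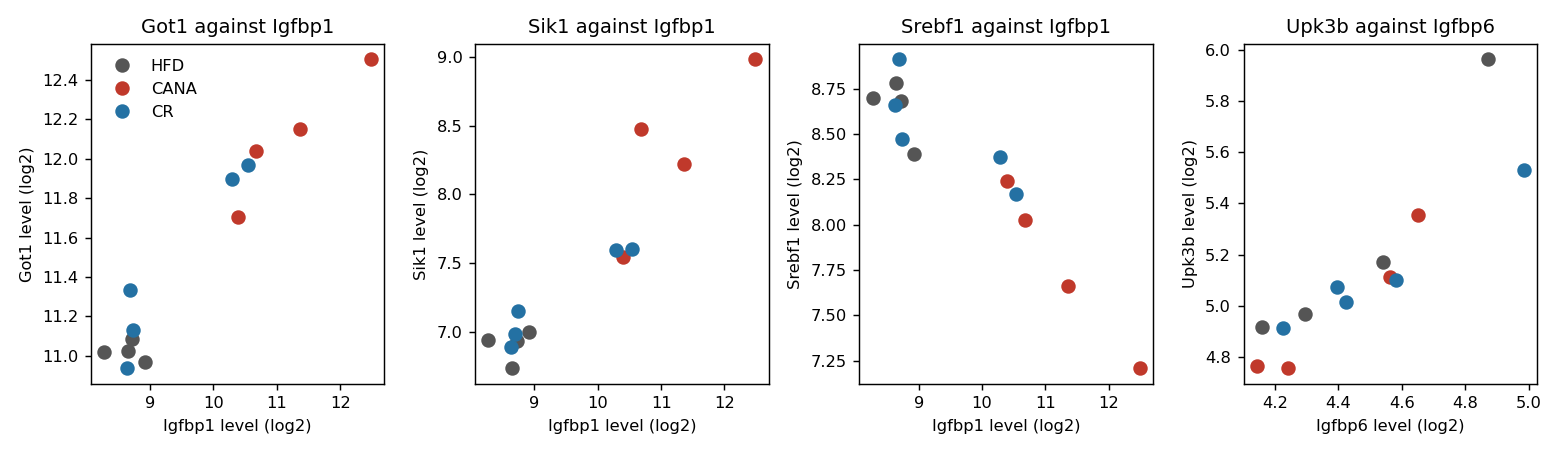
Log2 levels of Got1, Sik1 and Srebf1 against Igfbp1, and of Upk3b against Igfbp6, each point an array coloured by group. Got1 and Sik1 rise with Igfbp1 (r = 0.969 and 0.949), Srebf1 runs the other way (r = -0.945), and 2 CR arrays lie beside the CANA arrays. The genes plotted against each member were picked by their r over these same arrays.

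The genes most like Igfbp6 were Upk3b (r = 0.896) and Gpm6a (0.855), both in the list of mesothelial markers. Mesothelial cells form the liver's surface layer. Upk3b measured 4.92, 4.97, 5.17 and 5.96 in HFD and 5.02, 5.10, 5.08, 4.91 and 5.53 in CR. Its highest arrays in these groups, HFD replicate 4 and CR replicate 5, were also the highest for Igfbp6, at 4.87 and 4.99. The summed level of the 5 mesothelial markers ran from 6.55 to 7.23 in HFD, 6.47 to 6.86 in CANA and 6.46 to 7.13 in CR, with the same arrays on top in HFD and CR. Upk3b and Gpm6a were picked for likeness to Igfbp6 over these same arrays, and the sum includes both. The shared top arrays are therefore no separate support. No mesothelial marker was called, and the part of these cells in the Igfbp6 values was not tested. For Igfbp2 the most alike were Polr1d (0.883) and Eif5b (0.862), for Igfbp3 Il1rn (0.909) and Kif3b (0.899), and for Igfbp4 Agk (0.902) and Polr2m (0.883). For Igfbp5 they were Aldh9a1 (0.885) and Chn2 (0.872), and for Igfbp7 Pdlim1 (0.922) and Nfkbib (0.897).

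Among the partners of the family in liver, no gene was called. Of 8 genes for ligands, receptors and the ternary complex, 5 were above and 3 below zero in CANA vs HFD. Limma called 0 of them and 1 had an unadjusted p under 0.05. Igf1 measured 10.07, 10.42, 10.18 and 10.34 in HFD, 9.96, 10.32, 10.38 and 10.34 in CANA, and 10.13, 10.15, 10.20, 10.28 and 10.30 in CR. The groups overlapped, and the CANA and HFD difference was -0.00 with a 95% interval of -0.23 to 0.23. Igfals differed by -0.19 (95% interval -0.48 to 0.10). Igf2 (0.12), the receptor genes Igf1r (0.12), Igf2r (-0.13) and Insr (0.12) did not pass, with adjusted p between 0.805 and 0.893. Irs2, the insulin receptor substrate that insulin represses in liver, had the largest difference of the list at 1.04 (SE 0.21, adjusted p = 0.0636), and it was 0.92 between CANA and CR (adjusted p = 0.121).

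Of the IGFBP-cleaving proteases and their inhibitors 6 genes were tested, and all 6 were below zero in CANA vs HFD, with a median of -0.08. In CR vs HFD all 6 were below zero too, with a median of -0.19. These comparisons share the HFD arrays. Limma called none of them in either comparison, and 1 had an unadjusted p under 0.05 in each. Htra3, a secreted serine protease, differed by -0.43 (adjusted p = 0.418) in CANA vs HFD. Pappa, which encodes PAPP-A, differed by -0.04 (adjusted p = 0.958), and Stc2, whose product inhibits PAPP-A, by -0.13 (adjusted p = 0.805). Of 6 tested genes for related secreted proteins, 3 were above and 3 below zero and none was called, with 1 at an unadjusted p under 0.05. Among these, Ccn1 differed by -0.42 (adjusted p = 0.545) and Esm1 by 0.45 (adjusted p = 0.571).

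Growth hormone drives hepatic Igf1 and Igfals through STAT5. Of 10 genes of this route, 3 were above and 7 below zero in CANA vs HFD, with a median of -0.12, and none was called (1 at an unadjusted p under 0.05 in limma). Ghr, the growth hormone receptor, measured 8.97, 9.22, 9.20 and 9.19 in HFD against 8.86, 9.04, 8.76 and 8.89 in CANA, which overlapped. Its difference was -0.25 (SE 0.10, adjusted p = 0.418).

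Igfbp1 is known as a target of FoxO factors, of the stress factor ATF4, of glucocorticoid and cAMP signals and, in humans, of PPAR-alpha. Genes of the same routes were counted beside it, in lists chosen with earlier results of these data known. Over all genes tested, 46.1% were above zero in CANA vs HFD and 0.165% were called. An unadjusted p under 0.05 in limma, in either direction, was had by 8.82% of them. The part of these routes in the Igfbp1 level was not tested. In the list of FoxO factors and insulin-repressed genes, 14 of 17 were above zero in CANA vs HFD with a median of 0.12. Limma had 6 of them at an unadjusted p under 0.05, and 1 was called. That was Lepr, the leptin receptor, which rose by 2.45 (adjusted p = 0.00235) and was also higher than in CR, by 2.00 (adjusted p = 0.00641). Ppargc1a, a coactivator of fasting genes, differed by 1.37 (adjusted p = 0.0514). The gluconeogenic genes G6pc and Pck1 differed by 0.63 (adjusted p = 0.160) and 0.40 (adjusted p = 0.185), and Foxo1 by -0.02 (adjusted p = 0.980).

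Of 12 tested ATF4 and stress-response genes, 8 were above zero with a median of 0.11, and limma called none (3 at an unadjusted p under 0.05). Fgf21, a fasting hormone of liver, differed by 1.22 (adjusted p = 0.0653), and Atf4 by 0.18 (adjusted p = 0.656). The 4 genes of this list below zero were Ddit3 (-0.16), Asns (-0.07), Trib3 (-0.04) and Chac1 (-0.02). Of 12 glucocorticoid and cAMP-responsive genes, 9 were above zero with a median of 0.25. Limma had 5 at an unadjusted p under 0.05, among them Nr3c1 at -0.26, and Sik1 was the 1 called. Gadd45g differed by 1.63 (adjusted p = 0.185), and Tat, the tyrosine aminotransferase, by 0.43 (adjusted p = 0.286). Of 10 PPAR-alpha targets, 8 were above zero with a median of 0.30, and limma had 5 at an unadjusted p under 0.05. The 1 called was Cyp4a31, a fatty acid hydroxylase, which rose by 2.15 (adjusted p = 0.0109), though paralogs of this family can share probes. Cyp4a14 differed by 3.51 (adjusted p = 0.166), the largest of that list. In CR vs HFD, limma called none of the genes in these 8 lists, and at most 1 gene of a list had an unadjusted p under 0.05. There, 14 of 17 insulin-repressed genes were above zero as well (median 0.12), against the same HFD arrays. Over all genes tested, 46.4% were above zero in CR vs HFD. In CANA vs CR limma called Lepr alone.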

How the data were processed

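Total RNA of liver was measured on Affymetrix mouse gene arrays, from 250 ng per array per the labels' protocols. The deposited log2 values are the authors' RMA output from Affymetrix Expression Console, according to the submitters' processing notes, which give no version. RMA corrects background, normalizes between arrays and summarises the probes of a set. No scanner files or detection calls were used here. The annotation gave exactly 1 symbol to 23521 of 41345 probe sets, several to 1814 and none to 16010. Of the 23521, 23328 matched RefSeq by Entrez identifier.

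For 1082 of 22180 genes with several probe sets, the one with the highest mean was used. Dim genes, under the 40th percentile of gene means (3.95), were not tested. The remaining 13308 were fitted with limma 3.58.1 in R 4.3.3, in 1 fit to 13 arrays with no covariates (10 residual and 5.71 prior degrees of freedom). A call is a Benjamini-Hochberg adjusted p under 0.05 over all 13308 genes, two-sided. The steps were tested on simulated data. Intervals are at 95% from the moderated fit. Summed marker levels are log2 of the summed linear values of a list, so the probe sets of highest value weigh most.

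Pairs of members were tested with 100000 permutations of arrays within groups. Named genes were all 7 members, up to 4 genes of each pathway list with the smallest p and every called one, and 8 fixed partners. The genes most alike by Pearson r, without predicted loci, and the ATF4 and stress-response genes below zero were named too. Not all genes that this allows are described. Members and lists were chosen with earlier results of these data known. Deviations of same-numbered arrays from their group means correlated with r from -0.150 to 0.296 over genes. Arrays of different numbers were not compared in this way, so these values cannot decide whether the numbers pair the samples. The other settings tried are a different filter, probe-set rule, normalization, variance model, weights, arrays, replicate block, serial number, threshold, and leaving out each array. The test of the interaction with the serial-number sets was added after the data were seen. Some genes are not reported here.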

Additional observations from a re-analysis of the deposited data

Results flagged for a closer look

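Igfbp2 in HFD replicate 3 stood far below the other HFD arrays. Its log2 level was 9.11 against 9.94 to 10.07, and its gap to the nearest array took a share of 0.859 of the group's range, above Dixon's 95% critical value for 4 samples. This was 1 of 21 groups checked, 7 members in each of 3 groups, and chance flags about 1 in 20. Igfbp1 in the same array was 8.65, inside the HFD range.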

How the results depend on the processing

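The Igfbp1 rise in CANA vs HFD kept its direction under all settings run, between 2.17 and 2.90, and its call did not hold under all. Members called went from 1 to 0 with a trended and robust variance model (adjusted p = 0.126), with only serial numbers 1 to 8 (0.0687) and with only 9 to 14 (0.12), where fewer arrays entered. With each array left out the count ran from 0 to 1. With the other settings it was 1, also at an adjusted p under 0.10. In CANA vs CR the count went from 0 to 1 with the serial number as a covariate (Igfbp1 2.03, adjusted p = 0.0430) and with serial numbers 1 to 8 (2.19, adjusted p = 0.0295). The split at 8 was chosen after the values had been seen, and the CR arrays up to it are those low in Igfbp1. The cause of these changes was not tested. In CR vs HFD it was 0 throughout, and no pair of members was called under any setting. Whether the replicate numbers pair the samples is not known. With the replicate block, Igfbp1 differed by 2.59 in CANA vs HFD (adjusted p = 0.0283), 0.44 in CR vs HFD and 2.14 in CANA vs CR (adjusted p = 0.0709). No call of a member changed.

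Of 480 values of the other 6 members under these settings, 454 kept their direction, 26 turned and none was called. Many of them could not turn. Filters and variance models leave the group means as they are, and so does leaving out an array of a group not compared. The count that kept their direction is therefore no measure of stability. In CANA vs HFD, Igfbp6 turned to 0.22 with serial numbers 1 to 8 and Igfbp4 to -0.083 with 9 to 14. In CR vs HFD, Igfbp4 turned to 0.00094 with centring, 0.0040 with the replicate block and 0.037 with serial numbers 1 to 8. There, Igfbp6 turned to -0.0603 with the replicate block and -0.10 with 9 to 14, and Igfbp2 to -0.0935 and Igfbp5 to 0.30 with 1 to 8. In CANA vs CR, Igfbp4 turned to -0.022 with 9 to 14. With arrays left out, CANA vs HFD ran from -0.0324 to 0.0514 (Igfbp4), -0.17 to 0.0676 (Igfbp6) and -0.15 to 0.0075 (Igfbp7). CR vs HFD ran from -0.11 to 0.21 (Igfbp2), -0.088 to 0.0013 (Igfbp3), -0.0176 to 0.0097 (Igfbp4), -0.20 to 0.16 (Igfbp5), -0.0603 to 0.19 (Igfbp6) and -0.0417 to 0.15 (Igfbp7). CANA vs CR ran from -0.0249 to 0.0588 (Igfbp4). Under the 60th-percentile filter Igfbp5 and Igfbp6 were too dim to be tested. Arrays carry no read depth, and for these dim members the signal over background was not measured here.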
